A study of Caenorhabditis elegans with 8 samples.

Results

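Galectins are lectins that bind sugars carrying beta-galactose, through a conserved carbohydrate-recognition domain. They are made without a classical signal peptide, yet they are found both inside cells and outside them, where they crosslink glycoproteins and glycolipids. In Caenorhabditis elegans the family is named lec: LEC-1 has a pair of carbohydrate-recognition domains in tandem, LEC-6 has a single one and binds galactose-fucose units on the cores of N-glycans, and LEC-8 binds glycolipids. The 10 genes lec-1 to lec-10 were looked up by symbol in the RefSeq gene table of WBcel235, among 19983 protein-coding genes, and all 10 were found. A gene was counted as having a region if its span, from annotated start to annotated end, shared at least 1 base with a genomic region of the deposited list.

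That list came from RNA immunoprecipitation followed by sequencing (RIP-seq), in which RNA crosslinked to a tagged protein is purified with it and sequenced. The study had 8 samples in 4 groups of 2 biological replicates: RIP of worms with the allele F22D6.2(on49[MSTR-1::3xFLAG]) on chromosome I, RIP of wild-type N2 worms that carry no FLAG tag, and an input of each strain, in the same order. All were whole lysates of young adults grown at 25 °C and crosslinked for 30 min in 2% formaldehyde. The single table analysed, of 1207 regions specific to the tagged strain, holds 1 set of values per region and none per library. The region names point to RIP replicate 2 of the tagged worms. Replicate errors, depth per sample and a test of the tagged strain against N2 were therefore not available for any gene below, and the folds and q-values are those of the authors' deposited table.

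Of the 10 galectin genes, 4 carried a region and 6 did not. lec-4, lec-6 and lec-10 had 1 region each and lec-2 had 2, giving 5 regions. The share of 40% (exact 95% binomial interval 12.2 to 73.8) stands beside 954 of 19983 protein-coding genes, or 4.77%, in the whole list. Regions with a fold of at least 2 were found in 2 of the 10, lec-2 and lec-4, where 2.98% of all protein-coding genes had one. More than 1 region was found in 1 of the 10, against 1.05% of all protein-coding genes. The background includes genes that young adults may not express, and abundance was not measured for any galectin, so these shares were given no test. The 10 genes were also chosen with earlier results known, so the binomial interval is not that of a random draw of genes.

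Gene length did not separate the galectins with a region from the others. Protein-coding genes were split at the quartiles of their span. Among the 5 galectins of up to 1205 bp, lec-6 and lec-10 had a region and lec-7, lec-8 and lec-9 had none, where 4.54% of all genes of that length had one. From 1206 to 2005 bp, lec-4 had a region and lec-5 had none, against 3.8% of all such genes. No galectin fell between 2006 and 3585 bp, where 3.98% of genes had a region. Above 3585 bp, lec-2 had regions while lec-1 and lec-3 had none, against 6.77% of all such genes. The spans with a region ran from 857 bp (lec-6) to 6576 bp (lec-2) and those without from 766 bp (lec-8) to 9191 bp (lec-3), so they overlapped. By chromosome, a region was found in both galectins of III, where 6.85% of all protein-coding genes had one, and in the 1 of V, against 3.48%. It was found in 1 of 4 on II, against 3.83%, and in 0 of 3 on X, against 4.98%.

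**Figure D1:**
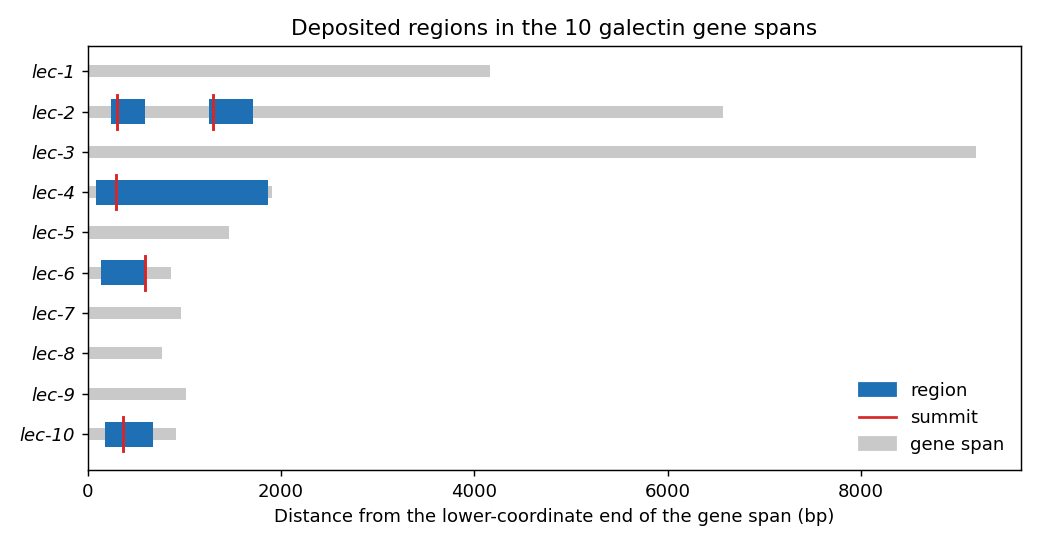
Each grey bar is the annotated span of a galectin gene in WBcel235, from its lower-coordinate end (0 bp), blue blocks are deposited regions and red lines their summits. The 5 regions lie in lec-2, lec-4, lec-6 and lec-10, cover nearly all of lec-4, and in lec-2 lie within the first 1711 bp.

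lec-4 had the highest fold of the family and the lowest coverage. Its gene, C44F1.3, spans chrIII:3771425-3773326 (1902 bp), and its region at 3771506 to 3773286 had a fold of 2.83. At the summit, position 3771715, 40 reads (exact 95% Poisson interval 28.6 to 54.5) stood over a control level of 13.5, the lowest level in the list and the same in 304 regions. The −log10 q was 6.995. By fold the region ranked 173rd of 1207, and among the 304 regions at the control floor 22.0% had a higher fold.

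The lec-4 region was also the widest of the 5. It measured 1781 bp and took in 93.6% of the gene span, leaving 81 bp at the lower-coordinate end and 40 bp at the other. Of all 1207 regions 11.4% were wider, and of the 954 genes with a region 2.31% had a larger part of their span in regions. The median gene with a region had 40.4% of its span covered (quartiles 17.8 and 67.2). The summit lay near one end, 290 bp from the lower-coordinate boundary. The gene table gives no strand or exons, so this end cannot be called the start or the end of the transcript.

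lec-2 was the only member with 2 regions, and both lay in the same end of a long gene. F52H3.7 spans chrII:10009608-10016183 (6576 bp, 2 RefSeq transcripts). The first region, at 10009844 to 10010198, reached a fold of 2.22, and its −log10 q of 10.2 was the largest of the family. Its summit held 96 reads (77.8 to 117) over a control level of 42.8. The second, at 10010867 to 10011318, reached 1.86, at a −log10 q of 4.15, from 66 reads (51.0 to 84.0) over 35.1.

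The lec-2 regions were 668 bp apart and carried consecutive numbers in the authors' numbering. With the control level held fixed, the counting interval of the fold was 1.80 to 2.70 for the first and 1.44 to 2.35 for the second. The ratio of the first to the second, taken as reads over control, was 1.19 with an exact 95% counting interval of 0.86 to 1.66, which holds 1. The gene of the tagged protein itself, mstr-1, had a region much like the first in fold and coverage (2.26, from 88 reads over 38.3). Together the lec-2 regions covered 12.3% of the span, and the remaining 4865 bp towards the higher coordinate held no region. Of genes with a region, 81.8% had a larger part of their span covered.

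lec-10 had a region in the middle of a short gene. W01A11.4 spans chrV:6488203-6489120 (918 bp), and the region at 6488382 to 6488876 covered 53.9% of it. Its fold was 1.74 with a −log10 q of 4.76, and 92 reads (74.2 to 113) stood over a control level of 52.3. Read number and control level were close to those of the first lec-2 region, with a lower fold (counting interval 1.41 to 2.13).

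lec-6, which encodes a single-domain galectin, had the highest coverage and the lowest fold of the family. Y55B1AR.1 spans chrIII:599510-600366 (857 bp), and the region at 599644 to 600101 covered 53.4% of it. A total of 218 reads (190 to 249) stood over a control level of 168, for a fold of 1.30 (1.13 to 1.48) and a −log10 q of 2.32. It ranked 1170th of 1207 by fold and 1019th by −log10 q. A fold this low or lower occurred in 38 regions, and the lowest control level among them was 115. The summit lay 1 base inside the region's end, at position 600100. Such a summit, within 1 base of an edge, occurred in 36 regions (2.98%), while the median distance to the nearest edge was 96 bp. The table's unlabelled 11th column, which is above 0 for 24.8% of regions, held 1 for lec-6 and 0 for the other 4 galectin regions.

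**Figure D2:**
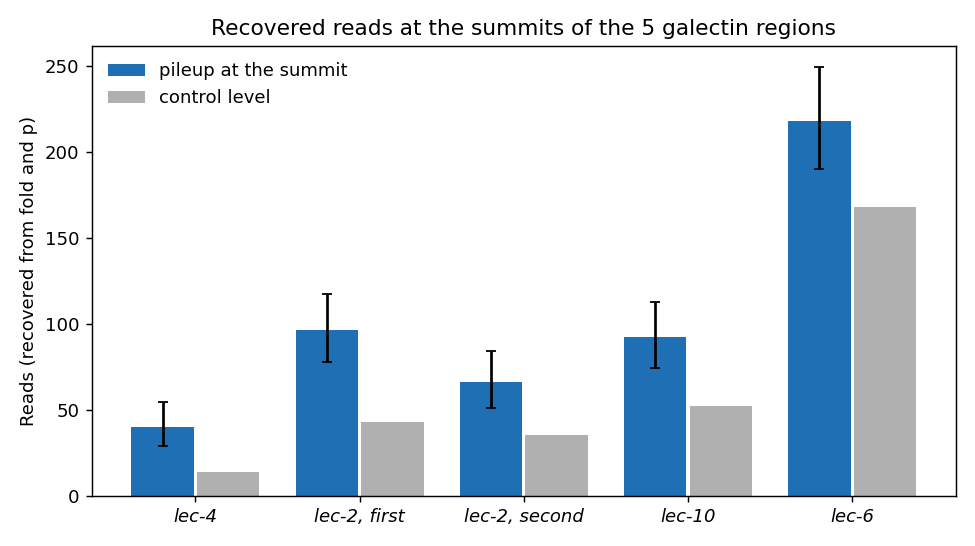
Bars show the reads recovered at the summit of each galectin region (blue, with exact 95% Poisson intervals) and the control level beside it (grey), ordered by fold from lec-4 at 2.83 to lec-6 at 1.30. Reads ran from 40 in lec-4 to 218 in lec-6, and the control levels from 13.5 to 168.

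The order of the family depended on the measure. By fold it was lec-4, the first lec-2 region, the second lec-2 region, lec-10 and lec-6. For each of the 10 pairs of regions, the ratio of reads over control was given an exact 95% interval from both read numbers, with control levels held fixed and no adjustment for the number of pairs. The interval excluded 1 in 6 pairs. lec-6 was below each of the other 4 regions, from 1.35 (1.05 to 1.73) for lec-10 over lec-6 to 2.28 (1.59 to 3.21) for lec-4 over lec-6. lec-4 was also above lec-10, with a ratio of 1.69 (1.13 to 2.47), and above the second lec-2 region, with 1.58 (1.04 to 2.37). The other 4 pairs could not be ordered at this depth: lec-4 over the first lec-2 region gave 1.32 (0.89 to 1.93), and the 3 pairs among the lec-2 regions and lec-10 gave 1.07 to 1.28. These intervals compare regions within 1 set of values and leave out the spread between replicates. They also leave out that only regions passing the authors' threshold are listed. At the control floor, where lec-4 lies, the lowest listed fold was 1.864, above lec-10 (1.743) and the second lec-2 region (1.857). From there to a control level of 100 the lowest was 1.321, above lec-6 (1.297). In each of the 6 pairs, any region listed in the control range of the higher member would thus have exceeded the lower member's fold. The lower folds were not fixed in this way. Folds reached 5.56 between the floor and 100, where lec-10 and the second lec-2 region lie, and 3.92 above 100, where lec-6 lies. Whether the listing threshold set the directions was not tested, and the intervals do not establish an order among the genes. By reads above the control level the first lec-2 region led with 53.2, followed by lec-6 with 50.1, lec-10 with 39.7, the second lec-2 region with 30.9 and lec-4 with 26.5. The counting intervals of these values were wide, 35.0 to 74.5 in the first lec-2 region and 15.1 to 41.0 in lec-4, and the differences between them were not tested. By these values the gene with the highest fold had the fewest reads above control, and the gene with the lowest fold came next after the highest.

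Beside regions in the same broad range of control level, the galectin folds lay on both sides of the median. The 5 regions had a median fold of 1.86 over a median control level of 42.8, where all 1207 regions had 2.10 over 23.0. Folds that pass the authors' threshold depend on the control level: the median was 2.42 in the 304 regions at the floor, 2.10 in 685 regions between the floor and 100, and 1.57 in 218 regions above 100. The middle range holds control levels from 13.5 to 99.6 and the highest range from 100 to 2215. A region's place in either range therefore also depends on its own control level, and is not a place among regions of like coverage. lec-4 was above the upper quartile of its range, 2.76. The first lec-2 region was between the median and the upper quartile of the middle range, 2.52, and 42.6% of its regions had a higher fold. The second lec-2 region lay between the lower quartile, 1.82, and the median. lec-10 lay below that lower quartile, with 83.2% of regions higher, and lec-6 below the lower quartile of 1.37 for its own range, with 82.6% higher. The lec-6 control level of 168 was in the lower part of that range.

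**Figure D3:**
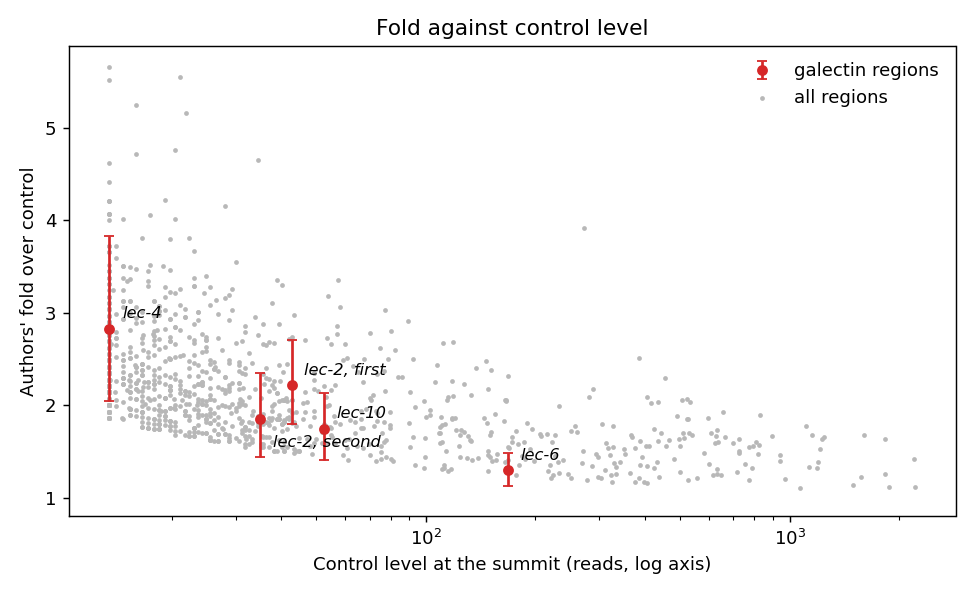
Each grey point is 1 of the 1207 regions, with the control level at its summit on a log axis (reads) and the authors' fold on the vertical axis. Red points are the 5 galectin regions with their counting intervals, which run from lec-4 at the control floor of 13.5 reads to lec-6 at 168 reads, close to the lower border of the list.

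No galectin region touched any other annotated gene, coding or non-coding, so all 5 were assigned to a lec gene alone. The case nearest to the 1-base rule was lec-3 (ZK892.1, chrII:9991160-10000350, 6 RefSeq transcripts), whose span ends 47 bp before a region at 10000397 to 10001084. That region lies in nlt-1, which overlaps lec-3 by 16 bases. Its fold was 2.39, and its −log10 q 7.995, from 64 reads (49.3 to 81.7) over 26.2. lec-3 and lec-2 are neighbours on chromosome II, 9257 bp apart with 3 protein-coding genes wholly between them.

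The other genes without a region were far from one. lec-5 (ZK1248.16, chrII:5839639-5841103) was 70472 bp from its nearest region. lec-1 (W09H1.6, chrII:13195549-13199713), the gene of a tandem-repeat galectin, was 124869 bp from its own. lec-8 (R07B1.10, chrX:9850571-9851336), the gene of a glycolipid-binding galectin, and lec-7 (R07B1.2, chrX:9852041-9853002) lie 704 bp apart, at 142152 and 143622 bp from the same nearest region. lec-9 (C16H3.2, chrX:17600487-17601503) was 384799 bp away, beyond the last region of the X chromosome. The later-named galectin genes lec-11 (IV) and lec-12 (V) also had no region, at 50044 and 174990 bp.

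Gaps in the numbering of the regions were also counted around these genes. Numbers rose with position on each of the 6 chromosomes, and 257 of the numbers up to 1464 (17.6%) do not occur in the list. No number was missing between the regions on either side of lec-3, of lec-7 and lec-8, or of lec-11. Between the neighbours of lec-5 1 number was missing, and 2 were missing for lec-1 and for lec-12. The region before lec-9 carries the last number, 1464, so no gap could be counted there. The sources used here do not state what the missing numbers stood for, and no read number was had for a gene without a region.

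Other lectin genes and genes of glycan synthesis were counted in the same way. Genes named clec, which encode proteins with the C-type lectin domain, unrelated in structure to the galectin domain, had a region in 10 of 239 cases (4.18%, exact 95% binomial interval 2.02 to 7.56), close to the background of 4.77%. Their 12 regions had a median fold of 2.36 over a median control level of 37.98, and 8 of the 12 had a fold of at least 2. clec-150 led with a fold of 3.80 from 78 reads over 19.8, followed by clec-52 with 2.97, clec-1 with 2.71 and clec-65 with 2.65. Of the 22 genes listed for enzymes that build or trim galactose- and fucose-bearing glycans and related chains, among them galt-1, fut-8 and bre-1 to bre-5, 0 had a region (exact 95% binomial interval 0 to 15.4%). The difference between the galectins and these lists was not tested, because the galectins were chosen with the list's contents known.

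**Figure D4:**
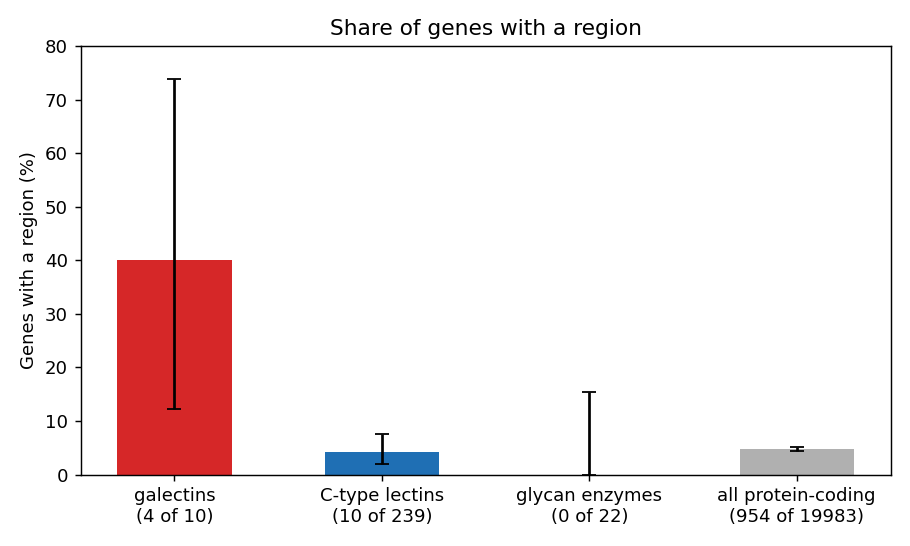
Bars show the percentage of genes with a region among the galectins (4 of 10), the C-type lectins (10 of 239), the glycan enzymes (0 of 22) and all protein-coding genes (954 of 19983), with exact 95% binomial intervals. The galectin interval runs from 12.2 to 73.8%, that of all protein-coding genes from 4.48 to 5.08%. The galectins were chosen with the list's contents known, so the intervals are no test of a difference.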

How the data were processed

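The submitters' processing notes name STAR and deepTools, without versions. The labels' protocols state that libraries followed a modified small RNA procedure. Those sources name no peak caller, build, control library or rule for strain specificity. The table has no header and the layout of MACS2 narrow peaks. The authors deposited per region a fold over control (a ratio), a −log10 p, a −log10 q, a score (10 times the −log10 q, rounded down) and a summit offset.

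Starts were converted to 1-based positions. The fit of the coordinates to WBcel235 rests on earlier results for this table and no build is named for them. Reads at each summit were recovered by solving fold = (pileup + 1) / (control + 1) together with the Poisson probability of more reads than the pileup. The result lay within 0.02 of a whole number for 1166 of 1207 regions, the 5 galectin regions included. That the caller used these formulas is an assumption. Intervals cover counting error alone, with reads taken as independent, and those of folds and of reads above control hold the control level fixed. Reads may be copies of 1 molecule, in which case the intervals are too narrow. Ratios between pairs of galectin regions were added after their values were seen. No test between libraries could be made. The counting of reads shared by similar genes is not stated.

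Named genes were all 10 members, lec-11 and lec-12, up to 4 of each comparison list by fold, mstr-1, and genes that share a region with a member. nlt-1, galt-1, fut-8 and bre-1 to bre-5 were named outside this rule. Members and lists were chosen with earlier results of these data known. The planned alignment of galectin proteins was not run, as no protein sequence was used here. Computations used scipy 1.17.1, numpy 2.4.6 and pandas 2.3.3 under Python 3.11.15, and figures matplotlib 3.10.9.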

Additional observations from a re-analysis of the deposited data

How the results depend on the processing

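lec-2, lec-4, lec-6 and lec-10 remained the galectins with a region when 50% of the region or its summit had to lie inside the gene span, when regions over 2 or more protein-coding genes were left out, and at a −log10 q of at least 2. At a −log10 q of at least 5, 2 remained (lec-2 and lec-4), against 2.897% of all protein-coding genes. Among regions whose unlabelled value is above 0, 1 galectin (lec-6), 3 C-type lectin genes and 1.39% of protein-coding genes remained. With spans extended by 200 bp, lec-3 was added through the nlt-1 region, giving 5, and the overall share was 5.25%. That share was 4.24% without regions over 2 or more genes and 4.40% at a −log10 q of at least 2. The glycan enzymes stayed at 0 and the galectins with a fold of at least 2 at 2 in all settings run, and folds without the pseudocount stayed within their counting intervals. No paired analysis was possible because values per library were not in the table analysed, and leaving out a replicate was not possible either. With 40 to 218 reads at a summit, 4 of 10 fold differences between galectin regions had a counting interval that holds a ratio of 1. In the other 6, the lower fold was below every fold listed in the control range of the higher region. Whether the listing threshold set their directions was not tested.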
